A study of Homo sapiens with 49 samples.

Results

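The data described here are the H3K4me3 peak lists of Ishikawa cells, an endometrial adenocarcinoma line, after estradiol (E2) or the vehicle DMSO. They were chosen by their labels, as the only Ishikawa lists for this mark, and hold 61498 of the 528044 peaks in the 45 lists of the series. The DMSO list held 29597 peaks and the E2 list 31901. The study mapped histone marks and regulatory proteins by chromatin immunoprecipitation and sequencing (ChIP-seq) in this line and in T-47D, a breast cancer line, to relate the surroundings of genes to their estrogen response. Cells of both groups were first kept for several days in medium depleted of hormones, then received E2 at 10 nM or DMSO for 8 h, and were fixed for ChIP with the same antibody. Each group was 1 library of 1 established line, so no difference between treatments could be set against the spread between replicates, and no p-value is given. Intervals below are exact 95% intervals that cover counting error only and compare these libraries, not the treatments.

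H3K4me3 is trimethylation of lysine on the tail of histone H3. It is deposited by SET1 and MLL complexes, which are drawn to unmethylated CpG islands, and it marks the start sites of active and poised genes. E2 acts through the estrogen receptor (ESR1), which binds the estrogen response element mostly at enhancers, where H3K4me1 prevails over H3K4me3.

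The sequences that follow show places away from promoters that carried H3K4me3 in the E2 list alone or with more reads there. Each is 200 bases of GRCh37, forward strand, centred on the summit, with CpG dinucleotides in capitals, because median CpG content differed between the classes of peaks. The first 2 are E2-only peaks in ANO1 and GREB1, and the last is the locus in RBM20 with the largest difference in reads.
ANO1, chr11:69950874-69951073: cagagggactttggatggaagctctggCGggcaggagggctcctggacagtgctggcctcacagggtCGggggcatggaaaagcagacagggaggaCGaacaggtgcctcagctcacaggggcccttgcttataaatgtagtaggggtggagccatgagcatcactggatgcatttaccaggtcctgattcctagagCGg
GREB1, chr2:11638617-11638816: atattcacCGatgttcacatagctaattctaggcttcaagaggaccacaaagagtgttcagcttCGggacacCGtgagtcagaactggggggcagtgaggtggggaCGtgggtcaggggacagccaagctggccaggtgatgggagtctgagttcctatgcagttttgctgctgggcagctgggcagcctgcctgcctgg
RBM20, chr10:112582763-112582962: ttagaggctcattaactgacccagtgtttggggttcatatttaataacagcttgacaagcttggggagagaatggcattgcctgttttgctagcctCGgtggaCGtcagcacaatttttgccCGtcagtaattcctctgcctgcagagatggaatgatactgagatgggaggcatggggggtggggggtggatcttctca
The windows at ANO1 and GREB1 held 4 CpG each and that at RBM20 held 3.

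Most H3K4me3 was found in both libraries. Peaks were compared on chromosomes 1 to 22 and X, which held 29594 DMSO peaks and 31897 E2 peaks, and a peak was shared if it overlapped a peak of the other list by at least 1 bp. Of the DMSO list 27620 peaks were shared and 1974 were DMSO-only, 6.67% of the list. Of the E2 list 28269 were shared and 3628 were E2-only, 11.4% of the list. Peaks of 1 list alone were narrow and weak, and covered 2.15% of the DMSO base pairs and 3.93% of the E2 base pairs. The excess of E2-only peaks depended on how the lists were cut. With the E2 list shortened to the 29594 peaks of highest −log10 p-value, 2390 peaks were E2-only and 2807 DMSO-only. That cut left unlike limits, with a lowest −log10 p-value of 17.4 in the E2 list and 10.2 in the DMSO list. With both lists held to a −log10 p-value of at least 20, 2971 peaks were E2-only and 1398 DMSO-only. At a fold enrichment of at least 10 in both, the counts were 2855 and 1379. The estimated depth was 13.4 Mtags (mega-tags) for DMSO and 15.1 Mtags for E2, and its part in the difference was not tested.

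Shared peaks had a median width of 714 bp in DMSO and 707 bp in E2, whereas DMSO-only peaks had a median of 232 bp and E2-only peaks of 228 bp. The median fold enrichment at the summit, which is the ChIP signal over the local background, was 16.0 and 17.3 for shared peaks, 8.18 for DMSO-only and 8.69 for E2-only peaks. The number of reads piled up at the summit could be solved from the deposited fold enrichment and p-value, and its median was 66 and 75 reads for shared peaks, 24 for DMSO-only and 25 for E2-only peaks. By p-value, the weakest DMSO-only peak had 21 reads over a background of 3.63 and a −log10 p-value of 10.2, and the weakest E2-only peaks had 20 reads over a background of 3.29 and also a −log10 p-value of 10.2. No peak below that limit is in either list, so a peak missing from 1 list may lie just under it.

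**Figure D1:**
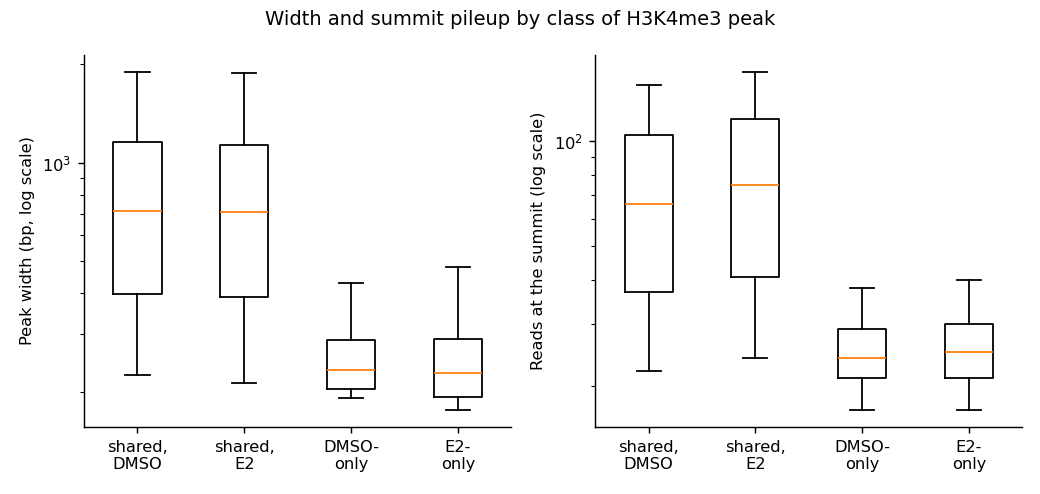
Peak width in bp (left) and reads piled up at the summit (right), both on log scales, for shared peaks of each list, DMSO-only and E2-only peaks. Boxes span the quartiles with the median as a line, whiskers the 5th to 95th percentiles. Peaks of 1 list alone sit at medians of 232 and 228 bp, below the 714 and 707 bp of shared peaks.

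A promoter was the 250 bp either side of an annotated transcription start site. Shares of peaks and loci by class used the start sites of all transcripts. Gene counts, ranks and gene lists used only those of protein-coding transcripts of protein-coding genes. Of shared peaks, 67.8% of the DMSO list (95% interval 67.2 to 68.3) and 67.7% of the E2 list (67.1 to 68.2) lay at promoters. Of E2-only peaks 24.1% did (22.8 to 25.6), against 17.4% of DMSO-only peaks (15.7 to 19.1). With lists of the same length these shares were 27.1% and 17.5%. Base composition followed the same order. In 300 bp centred on the summit, shared peaks had a median of 19 CpG, E2-only peaks 8 and DMSO-only peaks 5. The median GC content was 62.7%, 57.3% and 51%. Away from promoters shared peaks of the E2 list had a median of 9 CpG, E2-only peaks 6 and DMSO-only peaks 5. Their median GC content was 57.3%, 56% and 50.3%.

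Many peaks of 1 list alone were the flank of a peak in the other. Of E2-only peaks 46.8% lay within 1000 bp of a DMSO peak, and of DMSO-only peaks 45.4% lay within 1000 bp of an E2 peak. Over 5000 bp away lay 1405 E2-only and 824 DMSO-only peaks, and there the promoter share was 20.4% (18.3 to 22.6) and 11.4% (9.32 to 13.8).

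E2-only peaks lay at the promoters of 560 protein-coding genes, and DMSO-only peaks at those of 233. Of the 578 E2-only peaks concerned, 380 were within 1000 bp of a DMSO peak. By fold enrichment, the strongest E2-only promoter peak was at FST, which encodes the activin antagonist follistatin, with 50 reads and a fold enrichment of 19.3, but a DMSO peak began 44 bp away. Likewise, peaks at CAMSAP3, PDPK1, RYR2, TBX2, MSL3 and CDK6 were between 16 and 302 bp from a DMSO peak. CDK6, a G1 cyclin-dependent kinase, had 44 reads at its E2-only peak. TBX2 encodes a T-box transcription factor and RYR2 a calcium channel.

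Only a few of the strongest stood alone. The promoter shared by KCTD19 and LRRC36 had 49 reads with E2 and a fold enrichment of 18.3, and its nearest DMSO peak was 46633 bp away. The promoter of PSD2 (chr5:139174884-139175221) had 35 reads, with a DMSO peak 7170 bp away. Among DMSO-only promoter peaks the highest fold enrichment, 15.9, was at ARHGAP32, with 38 reads and no E2 peak for 59085 bp. SLC8A2, a sodium-calcium exchanger, had 22 reads and an E2 peak 7707 bp away. NXPH3, FBXL16, TNK2, TMEFF1, SVIP, HOXB4 and the pair CSAG1 and MAGEA12 made up the rest, all within 331 bp of an E2 peak.

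Away from promoters, the strongest E2-only peaks were in an exon of GOLGA7B (fold enrichment 22.2, 43 reads), introns of DOK7 (21.7, 51 reads) and ANO1 (20.1, 46 reads), an intron of ENSG00000235007 (21.0, 49 reads) and 17613 bp from H3-5 (19.7, 52 reads). The DMSO-only peaks of this kind had fold enrichments between 14.7 and 16.1 and between 29 and 34 reads, and 1 lay in an intron of FBXO10. The others were intergenic, and the nearest genes were FGFR2 at 233306 bp, NTMT1 at 134692 bp, TSC22D2 at 36372 bp and ITPRIPL2 at 15229 bp. GREB1, an early target of the estrogen receptor in breast cells, had 2 E2-only peaks, at chr2:11638581-11639153 with 39 reads and chr2:11639300-11639532 with 33 reads. It also held 2 DMSO-only peaks, at chr2:11622783-11622974 with 23 reads and chr2:11771581-11771880 with 27 reads. The strongest peak within GREB1 was shared, with 116 reads in DMSO and 130 in E2.

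E2-only peaks formed more groups than DMSO-only peaks in the lists as deposited. Joined where less than 5000 bp apart, E2-only peaks formed 85 groups of at least 3 peaks and DMSO-only peaks 10. With lists of the same length, where only the E2 list was cut, both formed 28 groups. The largest group was then the DMSO-only one, with 11 peaks against 5. Neither the number nor the size of the groups is independent of that cut. The groups described next are those of the lists as deposited. The largest E2-only group had 9 peaks over 8760 bp in ANO1 (chr11:69949794-69958553), which encodes a calcium-activated chloride channel, with 18 to 46 reads and no DMSO H3K4me3 peak. In that stretch the H3K4me1 lists had 3 peaks with DMSO and 7 with E2. LSD1, a demethylase of H3K4, had 1 and 7, at 1 h. The ANO1 promoter locus had 23 reads with DMSO and 46 with E2. The group at CARS1 had 8 peaks, that at NDST1 7, those at DOK7 and SAMD11 6, and that at CBFA2T3 5. The CARS1 and CBFA2T3 groups held no DMSO H3K4me3 peak. H3K4me1 peaks with DMSO and with E2 numbered 6 and 6 at CARS1, 7 and 8 at NDST1 and 6 and 3 at DOK7. At SAMD11 they numbered 4 and 9, and at CBFA2T3 6 and 7. The largest DMSO-only group had 4 peaks, at HOXB3 and HOXB5, among 9 E2 peaks.

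**Figure D2:**
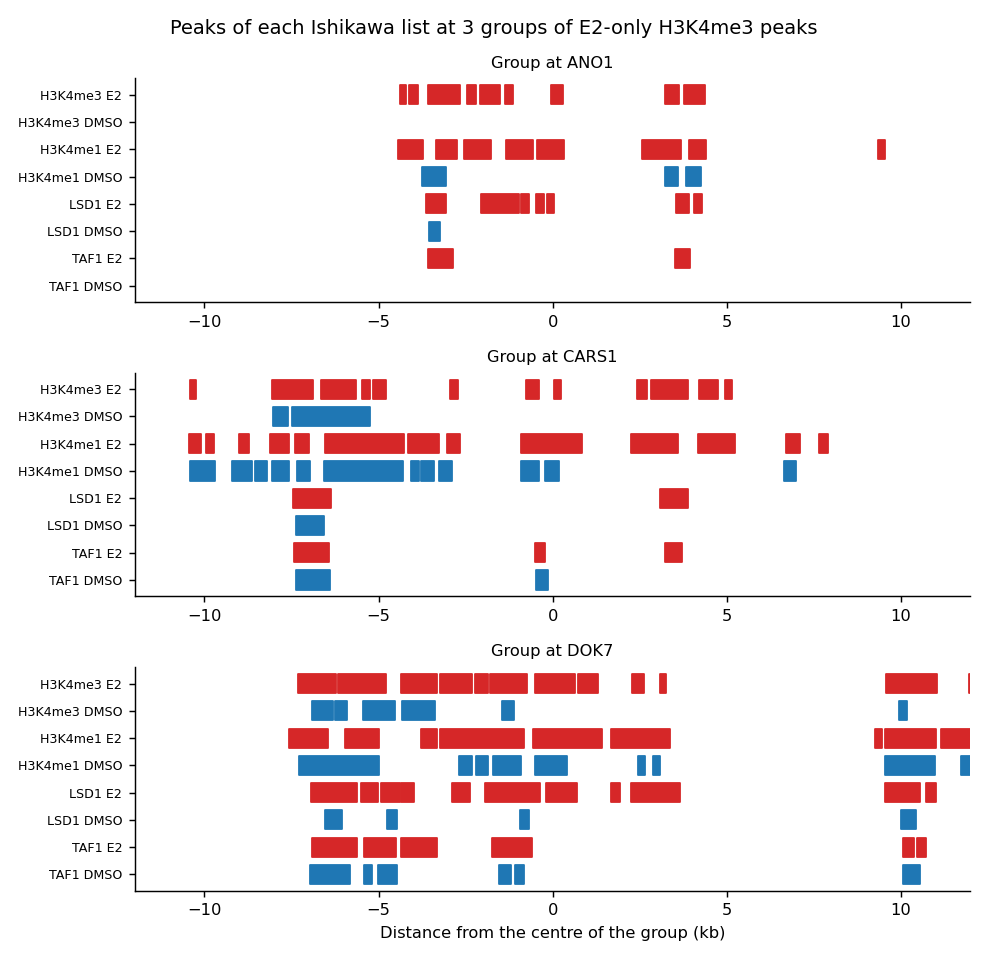
Peaks of each Ishikawa list at groups of E2-only H3K4me3 peaks at ANO1, CARS1 and DOK7. The x axis is the distance from the centre of the group in kb, red bars are peaks with E2 and blue bars peaks with DMSO. The ANO1 group has 9 H3K4me3 peaks with E2 and none with DMSO, while CARS1 and DOK7 also have H3K4me3 peaks with DMSO beside the group. The DOK7 group has 1 DMSO peak within its span as well.

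The estrogen response element was searched as GGTCA and TGACC with any 3 bases between them, which reads the same on both strands, in 300 bp at each summit. It was in that window at 15 of 3628 E2-only peaks, or 0.413% (0.232 to 0.681). It was in 9 of 28269 shared E2 peaks, or 0.0318% (0.0146 to 0.0604), and in 24 of all 31897 E2 peaks, 0.0752%. No DMSO-only peak of 1974 held it, which allows up to 0.187%. With lists of the same length it was in 14 of 2390 E2-only peaks and in none of 2807 DMSO-only peaks. Away from promoters, 14 of 2752 E2-only peaks held it, 0.509% (0.278 to 0.852), against 4 of 9143 shared E2 peaks, 0.0437% (0.0119 to 0.112). A match is a run of letters and not a bound site. The 300 bp window was wider than the median E2-only peak, 228 bp, but narrower than the median shared E2 peak, 707 bp. Elements elsewhere in shared peaks were not counted, so the shares compare windows and not whole peaks. The AP-1 motif TGANTCA, searched on both strands, was in 8.32% of E2-only peaks (7.45 to 9.27), 11.6% of DMSO-only peaks (10.2 to 13), 5.33% of shared E2 peaks and 5.67% of all E2 peaks.

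Of the E2-only peaks with the element, 3 that lie far from any DMSO peak are shown, the element in capitals and 40 bases on each side, forward strand of GRCh37.
NOSIP, chr19:50073976-50074068: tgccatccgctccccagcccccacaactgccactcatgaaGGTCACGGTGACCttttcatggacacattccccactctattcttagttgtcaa
POC1B, chr12:89858879-89858971: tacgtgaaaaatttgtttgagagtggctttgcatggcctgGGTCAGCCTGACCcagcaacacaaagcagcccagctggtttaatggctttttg
THNSL2, chr2:88491032-88491124: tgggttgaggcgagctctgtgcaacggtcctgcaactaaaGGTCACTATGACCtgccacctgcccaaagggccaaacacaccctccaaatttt
The NOSIP peak lay in an intron, with 33 reads and the element 6 bp from the summit. The POC1B peak was intronic as well, with 27 reads and the element 140 bp from the summit, and the nearest DMSO peak was 58796 bp away. The THNSL2 peak was 4728 bp from the gene, with 22 reads and the element 130 bp from the summit, and the promoter locus of THNSL2 had 23 reads with DMSO and 47 with E2. The remaining E2-only peaks with the element had 20 to 38 reads. Of these, 8 were in or at the promoter of MANEAL, BRAT1, ZMIZ1, MIDEAS, HIPK1, CSRNP1, DNLZ and SIN3A. The others were intergenic, with the nearest gene at 1486 bp for KCNJ1, 12839 bp for TUBG1, 75186 bp for IPO5 and 127000 bp for FOXD1. The search window can reach past a narrow peak. The element lay beyond the end of the SIN3A peak and ran past that of the IPO5 peak. The peaks at ZMIZ1, MANEAL, DNLZ, SIN3A and CSRNP1 lay between 63 and 554 bp from a DMSO peak.

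Where both lists had a peak, overlapping peaks were chained into 26266 loci, of which 23227 had 1 peak in each list. Reads at the strongest summit could be compared at 26262. The median ratio of E2 to DMSO reads was 1.11, and each locus was set against this common ratio. Across loci the log2 reads of the libraries had a Pearson r of 0.965, a description since loci share libraries and local background. The exact interval of the ratio lay above the common ratio at 217 loci, 0.826%, and below it at 170, 0.647%. Exact 95% intervals leave out at most 5% under counting error alone, so 5% is a ceiling and not an expected share. Both shares together are below it, so the loci named below are the extremes of a list and not established differences. In the third of loci with the most reads, the SD of the log2 ratio was 0.13, and the counting error alone would be 0.18.

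Of the 217 loci with more reads, 64.1% (57.3 to 70.4) were at promoters, and of the 170 with fewer, 50.6% (42.8 to 58.3), against 69.4% of all loci. The loci with more reads had a median of 22 CpG and those with fewer 9. Chosen after their values were seen, promoters with large ratios included these. DHRS3, a retinal reductase gene, had 35 reads with DMSO and 85 with E2, a ratio of 2.43 (1.62 to 3.71), at chr1:12676923-12677697. PLXNA4, a semaphorin receptor, had 19 and 46. GPC1, a heparan sulfate proteoglycan, had 18 and 42 at 1 locus and 30 and 59 at the next. TESMIN had 32 and 67, and SLC17A7, a vesicular glutamate transporter, 22 and 46. CBFA2T3, a transcriptional corepressor with an E2-only group in an intron, had 26 and 54. Outside promoters, an intron of RBM20 (chr10:112581893-112583190), an RNA splicing factor of muscle, had 25 and 78 reads, a ratio of 3.12 (1.97 to 5.11), and the locus in GDPD5 had 20 and 55. GDPD5 also held a group of 5 E2-only peaks. In the other direction, the deubiquitinase gene USP11 had 58 reads with DMSO and 32 with E2, a ratio of 0.552 (0.347 to 0.864). The apoptosis gene BAX had 68 and 44, and FBXO11 had 82 and 55. CLASP2, NXT2 and OTUD5 had ratios between 0.590 and 0.605.

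**Figure D3:**
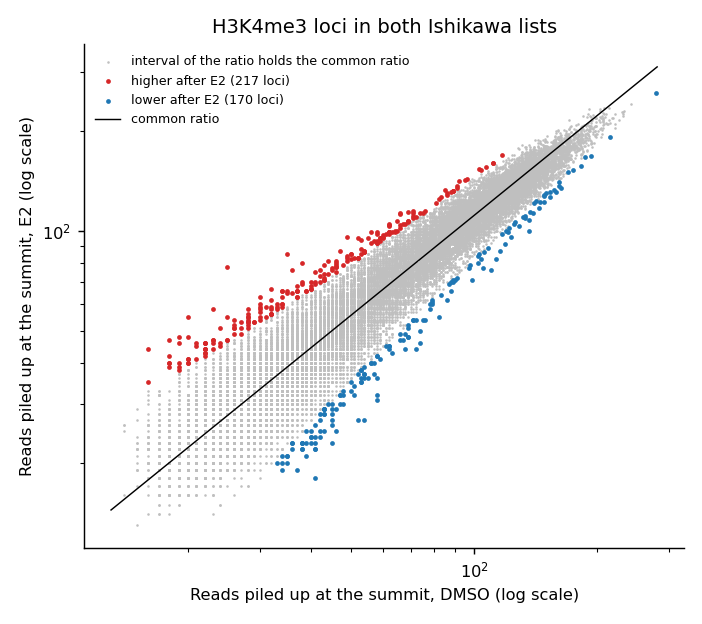
Reads piled up at the summit with E2 against DMSO, on log scales, 1 point for each of the 26262 loci in both lists. The line is the common ratio of 1.11, and coloured points are the 217 loci above and 170 below it by their exact 95% intervals. Points lie along the line throughout.

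Covered width hardly differed. The ratio of E2 to DMSO covered base pairs had a median of 0.997 over all loci and quartiles of 0.925 and 1.08. The widest loci were the same in both lists: EMX2, a homeobox gene of the reproductive tract, covered 6292 bp with DMSO and 6819 bp with E2, and the adhesion receptor gene ADGRG1 5951 and 6570 bp. LTBR with SCNN1A and LAMA5 followed, and ZNF503 in DMSO and MTA1 in E2 completed the top 5. Among promoter loci of at least 2000 bp in 1 list, the largest ratio was at RXRA, the retinoid X receptor, with 1429 bp and 2477 bp, a ratio of 1.73, while its reads were 28 and 30. SHOX2 with RSRC1 (1.44), DOK7 (1.33), RAI1 (1.32) and MKNK2 (1.32) came next. The smallest ratios were at NUSAP1 with OIP5 (0.737), ARF4 (0.739), AURKA with CSTF1 (0.756), KRT8 (0.766) and PHF8 (0.774), where both lists had between 42 and 161 reads.

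Of 19756 protein-coding genes, 13106 had a promoter peak in both lists, 57 in the DMSO list alone and 235 in the E2 list alone. These are not counts of genes that gained or lost the mark. A shared peak counts in 1 list alone where only that list's edge reaches the promoter window. E2F1 counted in the E2 list alone and KMT2B in the DMSO list alone. Their loci were in both lists, with 89 and 96 reads at E2F1 and 136 and 144 at KMT2B. Each promoter was given the percentile rank of its strongest peak by fold enrichment among all peaks of its list. Over 11880 promoters, counted once per pair of peaks, the rank was at least 20 points higher with E2 at 964, 8.11%, and at least 20 points lower at 424, 3.57%. With lists of the same length these numbers were 786 and 642. The median change was 0.96 points. Ranks had a Pearson r of 0.816 across promoters.

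Promoters with large rank changes had a moved summit or a changed local background more often than the rest. The background is the divisor in the ranked fold enrichment, so a changed background moves the rank by definition. Among promoters with a higher rank, the summits were over 100 bp apart at 56.2% (53.0 to 59.4), and among those with a lower rank at 67.0% (62.3 to 71.4), against 22.5% of promoters that changed by less than 20 points. The local background, set against that of the genome, was at least 1.5 times lower with E2 at 444 of the 964. It was at least 1.5 times higher at 257 of the 424. Among promoters that changed by less than 20 points, it differed at least 1.5 times either way at 5.71%. The reads at the summit were beyond their interval in the same direction at 94 of the 964 and 31 of the 424. Ranked by reads at the summit, 175 promoters (1.47%) were at least 20 points higher and 136 (1.14%) lower.

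The named extremes are examples. PITX1, a homeobox gene, had the largest increase, 77.9 points, but the peaks compared did not overlap: the DMSO peak had 43 reads and the E2 peak 141, while a neighbouring DMSO peak within 2000 bp had 92. KCNIP3, MTSS2 and FHL3 were also compared between peaks that did not overlap. At DNAJC13, with 65.6 points, the reads were 113 and 146 and the local background was 8.72 and 2.45. TXNRD3, a thioredoxin reductase gene, had 59 and 77 reads, XKR7 38 and 56, KIF5C 23 and 39, and LOXL1 46 and 70. AVEN had 34 and 144 reads, with a DMSO peak of 113 reads within 2000 bp. LRP2, which encodes megalin, had the largest decrease, 66.2 points, with 73 and 78 reads and a background of 2.50 and 9.88. ZNF783, ZNF33A, UBL3, MDFIC, GTSE1 and SUCLG1 had reads within the interval in the same way. GLA did too, but was compared between peaks that did not overlap, with summits 761 bp apart. TBC1D9 had 73 and 115 reads, with a DMSO peak of 124 reads within 2000 bp. ARHGEF7 was compared between peaks with summits 39470 bp apart.

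**Figure D4:**
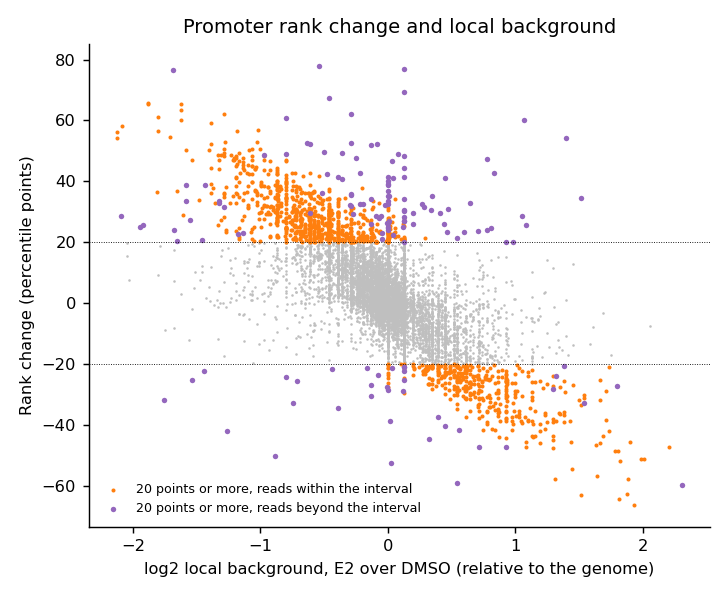
Rank change at promoters in percentile points against the log2 ratio of local background, E2 over DMSO, relative to that of the genome. Each point is 1 of 11880 promoters, dotted lines mark 20 points, and orange and purple mark larger changes with reads within or beyond their interval. Higher ranks gather at lower background and lower ranks at higher background. The background is the divisor in the ranked fold enrichment.

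At promoters of protein-coding genes, 0.772% of 15935 loci had more reads with E2 and 0.458% fewer. Of 26 estrogen-induced genes, 20 had a promoter locus in both lists, beside 66.3% of all protein-coding genes with a promoter peak in both. Each gene was read at 1 promoter locus, the one with the most reads. Here 1 gene had more reads and 0 fewer. The median log2 ratio, relative to the common ratio, was 0.05, beside 0.01 over all promoter loci. That gene was RET, a receptor tyrosine kinase, with 37 reads with DMSO and 63 with E2 (ratio 1.70, 1.12 to 2.63). CA12, a carbonic anhydrase, had 31 and 54, and STC2 had 99 and 121, both within the interval. NRIP1, a corepressor of nuclear receptors, had 72 and 106. PGR, the progesterone receptor, had 73 and 71, CCND1, cyclin D1, 70 and 83, TGFA, an EGF receptor ligand, 88 and 109, and XBP1 116 and 117. GREB1, TFF1, AREG, CXCL12, IGFBP4 and PDZK1 had no peak at the promoter of a protein-coding transcript in either list. The strong shared peak within GREB1 given above lay outside those windows.

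Of 17 steroid receptors and cofactors, 15 had a locus in both lists and 0 lay beyond the interval. ESR1 itself had 48 and 49 reads. Of 18 immediate early and AP-1 genes, 17 had a locus and 0 lay beyond the interval, with FOS at 123 and 122 reads and EGR1 at 128 and 146. EGR1 was 45.2 points higher in rank all the same. All 20 S phase genes had a locus, and 0 lay beyond the interval at the locus with the most reads, with PCNA, the polymerase clamp, at 131 and 170, CDC6, a replication licensing factor, at 136 and 181, and E2F1 at 89 and 96. Of 16 Mullerian transcription factors 11 had a locus, and 1 lay above the interval. That was WT1, with 49 and 84 reads (ratio 1.71, 1.19 to 2.49). EMX2 had 73 and 86, PAX8 98 and 103 and HOXA10 64 and 70. All 17 genes of the H3K4 methylation machinery had a locus and 0 lay beyond the interval: KMT2A, an H3K4 methyltransferase, had 129 and 131 reads, and the demethylase gene KDM5A 198 and 206. The 13 retinoid, 14 glycolysis and hypoxia, 13 Wnt and Notch, 14 epithelial and 16 housekeeping genes with a locus gave 0 beyond the interval in either direction at the locus with the most reads, and their medians ran from −0.08 to 0.05. At other promoter loci of the listed genes, which were counted after the data were seen, 3 lay beyond it. These were a locus of CCNE2, an S phase cyclin, with 71 and 113 reads (ratio 1.59, 1.17 to 2.17), the DHRS3 locus given above, and a locus of the keratin gene KRT8 with 133 and 111 reads (0.835, 0.643 to 1.08).

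The labelled cell type was checked by the promoter marks. All 9 markers of simple epithelium and all 8 of endometrium or Mullerian duct had a locus in both lists, among them EPCAM at 104 and 124 reads and CDH1 at 105 and 106. These shares stand beside 66.3% of all protein-coding genes. KRT7, a keratin of the epithelial list, had no promoter peak in either list. Of the 16 Mullerian transcription factors given above, only 11 had a locus, and 4 had no promoter peak in either list. None of 6 immune markers had a promoter peak in either list. Of the other markers, 1 of 6 breast luminal, 1 of 4 endothelial, 1 of 5 stromal and 1 of 4 neural genes had a locus in both. The neural gene was SNAP25, with 63 and 99 reads (ratio 1.57, 1.13 to 2.19), above the interval. By promoter peak, the measure behind the 66.3%, the neural gene SYP counted in the DMSO list alone. The neural gene RBFOX3, the breast luminal gene GATA3 and the Mullerian gene SOX17 counted in the E2 list alone. An H3K4me3 peak does not show that a gene is transcribed.

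Peaks of 1 list alone overlapped H3K4me1 more often than shared peaks did, and TAF1 less, and the difference in H3K4me1 was smaller among peaks away from promoters. The H3K4me1 list of DMSO cells overlapped 58.5% of DMSO-only (56.2 to 60.6), 51.9% of E2-only (50.3 to 53.5) and 26.1% of shared E2 peaks. The H3K4me1 list of E2 cells overlapped 47.7% of DMSO-only peaks (45.5 to 50) and 51.8% of E2-only peaks (50.2 to 53.4). Away from promoters, the H3K4me1 list of DMSO cells overlapped 64.4% of DMSO-only, 61.8% of E2-only and 53.8% of shared E2 peaks, and that of E2 cells 52.4%, 61.3% and 49.1%. LSD1 with DMSO overlapped 19.9% of DMSO-only, 8.43% of E2-only and 21.9% of shared E2 peaks, and LSD1 with E2 21.9%, 24.0% and 47.7%. The AP-1 subunit c-JUN with DMSO overlapped 9.93% of DMSO-only, 3.22% of E2-only and 7.57% of shared E2 peaks, and with E2 34.9%, 24.6% and 38.5%. The LSD1 list had 8613 peaks with DMSO and 18382 with E2, and the c-JUN list 3763 and 18310, so that shares compare within a list and not between lists. TAF1, a subunit of the general transcription factor TFIID, overlapped 70.4% of shared E2 peaks with DMSO and 59.8% with E2, but 14.5% and 9.76% of E2-only peaks. Away from promoters TAF1 overlapped 49.3% and 35.5% of shared E2 peaks and 12% and 8.68% of E2-only peaks. The polycomb mark H3K27me3 overlapped 5.99% of shared E2 and 1.79% of E2-only peaks with DMSO, and 23.7% and 3.39% with E2. Among peaks away from promoters these shares were 11.42% and 2.07% with DMSO, and 12.97% and 3.38% with E2. The H3K27me3 list had 2193 peaks with DMSO and 6989 with E2. The H3K4me1 list had 28411 and 22553, and the TAF1 list 19348 and 16552. Shares of these marks and of TAF1 likewise compare within a list and not between lists. LSD1, c-JUN and TAF1 were mapped after 1 h, and H3K4me1 and H3K27me3 after 8 h.

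**Figure D5:**
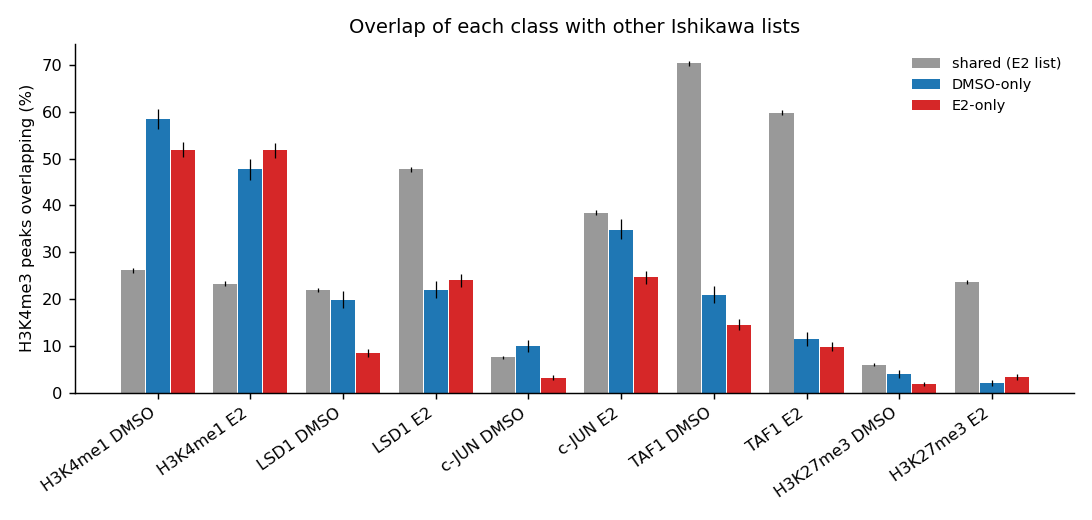
Percent of shared peaks of the E2 list (grey), DMSO-only (blue) and E2-only (red) H3K4me3 peaks that overlapped each other Ishikawa list by at least 1 bp. Error bars are exact 95% intervals. H3K4me1 overlapped 51.9% and 58.5% of E2-only and DMSO-only peaks but 26.1% of shared peaks, and TAF1 the reverse.

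At promoters whose H3K4me3 rank was higher with E2, the median change in TAF1 rank was −4.37 points, at those with a lower rank −3.46, and at the rest −3.74. Changes in H3K4me3 and TAF1 rank had a Pearson r of −0.03 over 10740 genes, and those in H3K4me3 and H3K4me1 rank −0.02 over 699, both across genes that share libraries.

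In the lists as deposited, T-47D cells gave the opposite order of peak numbers. There 5752 peaks were DMSO-only, 18.7% of the list, and 2745 E2-only, 9.44%. With lists of the same length within each line, DMSO-only peaks were the more numerous in both. There were 2807 and 2390 in Ishikawa and 4641 and 3201 in T-47D. That cut removed peaks from the E2 list alone in Ishikawa and from the DMSO list alone in T-47D. It can only lower the count of the shortened list's own class and raise the other, so the shared order is not a comparison at like limits. In T-47D the median ratio of reads at shared loci was 0.897, and 0.836% of loci were above it by their intervals and 0.456% below. Rank was at least 20 points higher at 918 promoters, 8.85%, and lower at 1818, 17.5%. Over 11520 loci matched between the lines, the log2 ratios relative to each line's common ratio had a Pearson r of −0.04. Of the Ishikawa loci with more reads, 99 had a match, and 1 was also above its interval in T-47D. Of those with fewer reads, 63 had a match, and 0 were below their interval in T-47D while 2 were above it.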

How the data were processed

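Peak lists in narrowPeak format were used as deposited. The submitters' processing notes name Bowtie 1.1.2, MACS2 2.1.0.20140616 and the build hg19, which is GRCh37, and each library had its own list. The deposited values were a fold enrichment (the ratio of ChIP signal to local background where a peak is highest) and a −log10 p-value. Each is limited by depth, and weak peaks are found or missed with it.

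Summit reads and background were solved from these values (fold enrichment as reads plus 1 over background plus 1, p as a Poisson tail), to within 0.001 of the −log10 p-value for all but 3 DMSO and 2 E2 peaks. Depth was estimated from the lowest background held by at least 10 peaks, the narrowest peak (191 and 175 bp) and an assumed 2700 Mb genome. Reads were compared by exact conditional 95% intervals, set against the median ratio. Start sites came from GENCODE release 44 lifted to GRCh37, and 3 DMSO and 4 E2 peaks on Y were left out. Scripts used Python with numpy, pandas and scipy and were tested on simulated data. Named genes were the 10 per list with the strongest promoter peak found in 1 list, the 10 largest rank changes each way, the 5 widest loci, the 5 largest and smallest width ratios, the 5 strongest distal peaks, and gene list members. Genes named for summit reads, estrogen response elements or groups were chosen after their values were seen. The members and gene lists were chosen with earlier results of these data known. Alternatives covered thresholds, list length, overlap, promoter window, rank measure and joining. Input libraries were not analysed here, and some sequences are not reported here.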

Additional observations from a re-analysis of the deposited data

Results flagged for a closer look

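Several differences between the E2 and DMSO libraries of H3K4me3 had opposite signs in the endometrial line Ishikawa and the breast line T-47D, in the lists as deposited. With 1 library a group, they compare libraries and were not tested. The number of peaks with E2 over that with DMSO was 1.08 in Ishikawa and 0.945 in T-47D, and the covered base pairs had ratios of 1.02 and 0.918. E2-only peaks over DMSO-only peaks gave 1.84 in Ishikawa and 0.477 in T-47D. With lists of the same length the ratios were 0.851 and 0.69, where both lines had more DMSO-only peaks. That cut took peaks from the E2 list alone in Ishikawa and from the DMSO list alone in T-47D, which lowers the shortened list's own class. The median ratio of reads at shared loci was 1.11 and 0.897. Promoters with a higher rank over those with a lower rank gave 2.27 and 0.505, and 1.22 and 0.665 with lists of the same length. The estimated ratio of tags, E2 over DMSO, was 1.13 in Ishikawa and 1.11 in T-47D, and its part in these ratios was not tested.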

How the results depend on the processing

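No paired analysis was possible because each H3K4me3 group was a single library, and for the same reason no library could be left out. Settings added after seeing the data were ranks by summit reads, pairs matched by locus, a 5000 bp distance, every promoter locus of a listed gene, and lists of the same length for T-47D, for groups and for estrogen response elements. E2-only peaks outnumbered DMSO-only peaks in 5 of 6 settings, the exception being lists of the same length. The E2-only promoter share was the higher in 8 of 8, and higher ranks outnumbered lower ranks in 13 of 13. E2-only and DMSO-only peaks were 7207 and 4904 by reciprocal overlap of 50%, 2155 and 1212 with peaks widened by 500 bp, and 1405 and 824 with no peak of the other list within 5000 bp, and E2-only peaks were 2390 with lists of the same length. Promoter shares of E2-only and DMSO-only peaks were 37.6% and 29.2% at a fold enrichment of at least 10, 29.5% and 21.3% at a −log10 p-value of at least 20, 35.8% and 35.1% by reciprocal overlap, 18.8% and 11.3% with widened peaks, 41.6% and 30.5% in a 1000 bp window, 9.51% and 6.99% at the start site itself, and 20.4% and 11.4% beyond 5000 bp, and the E2-only share was 27.1% with lists of the same length. Promoters higher and lower in rank were 313 and 119 by −log10 p-value, 2468 and 1448 at 10 points, 353 and 150 at 30 points, and 175 and 136 by summit reads. Those lower were 688 at a fold enrichment of at least 10, 642 with lists of the same length, 860 among promoter peaks, and 852 with the nearest peak. The cause was not tested beyond what each setting changes. The width ratio stayed within 0.05.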
